A study of Mus musculus with 12 samples.

Results

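The regions described here are the autosomal stretches of the mouse genome (build mm9) that lie under a peak in every one of 8 deposited peak lists, 4 for H3K79me1 and 4 for H3K79me2. They were found by intersecting the lists base by base, and each unbroken run of shared bases was taken as 1 region. There were 2393 regions, against 324080 autosomal stretches that lay under a peak in at least 1 list. The regions were thus chosen by the peak calls themselves, so their number, their places and their presence in any list are a description and carry no test.

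The Cre libraries came from mouse embryonic fibroblasts with the genotype AF10 -/-, OSKM, rtTA and the treatment CRE, dox, and the control libraries from fibroblasts with the genotype AF10 fl/fl, OSKM, rtTA and the treatment Control, dox. Cre cells received the adenovirus Ad5-CMV-Cre and control cells Ad5-CMV-Empty, both with the CMV promoter in the vector name. In both groups reprogramming was started with doxycycline at 2 µg/mL, and cells were taken on day 4. Each mark had 2 Cre libraries and 2 control libraries, and whether replicates came from separate cultures is not stated, so the p-values below measure the spread between libraries, which may be technical. All cells grew on DR4 feeder fibroblasts, whose chromatin cannot be told apart from that of the reprogramming cells in these lists. Each precipitation of 7.1 µg of chromatin was spiked with 133 ng of chromatin of 293T, a human line derived from embryonic kidney, and the lists record no scaling by it. Peak lists give no reading of the AF10 deletion itself, and the cell type was not checked against marker genes because no annotation of mm9 was used.

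H3K79 methylation is placed on the core of the nucleosome by DOT1L, the only known enzyme for this residue, and lies mainly over the bodies of transcribed genes. AF10, encoded by Mllt10, is a cofactor that binds DOT1L and helps it to add further methyl groups. DOT1L activity is known as a barrier to the reprogramming of fibroblasts, the process that OSKM (Oct4, Sox2, Klf4 and Myc) sets off in the cells used here. The lists were compared to see which places carried both marks whether or not AF10 had been deleted.

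The regions were small and rare. Together they covered 251.6 kb, which was 0.136% of the 184.7 Mb covered by at least 1 list and 0.0102% of the autosomes as measured to the last peak of each chromosome. Their median width was 78 bp, with quartiles of 47 and 137 bp. The narrowest regions were a single base wide, of which there were 14, and 100 regions were under 10 bp. At the other end, 279 regions were at least 200 bp wide and 26 were at least 500 bp, up to 1104 bp. Since the chromatin had been sheared to fragments of 200 to 400 bp, most regions were narrower than a fragment and mark where peak edges overlapped, not the full width of a marked domain.

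The 8 lists differed greatly in how much of the genome they covered, and this set how many regions there could be. For H3K79me1, peaks covered 59.5 Mb of the autosomes in Cre replicate 1 and 1.85 Mb in Cre replicate 2, against 117.8 Mb in control replicate 1 and 53.4 Mb in control replicate 2. For H3K79me2, they covered 47.5 and 49.2 Mb in the Cre libraries, against 15.7 and 69.9 Mb in the controls. H3K79me1 Cre replicate 2 stood far below every other list, and H3K79me2 control replicate 1 was the next smallest. The regions accordingly made up 13.6% of the length of H3K79me1 Cre replicate 2, 1.60% of that of H3K79me2 control replicate 1, and 0.214 to 0.529% of the length of each of the other lists.

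The bases just outside the rule showed the same dependence. Bases covered by exactly 7 lists came to 2215 kb, and 82.4% of them were missing from H3K79me1 Cre replicate 2 only. H3K79me2 control replicate 1 was the missing list for 6.81% of these bases, and each of the other 6 lists for 0.288 to 3.61%. Without H3K79me1 Cre replicate 2, the other 7 lists shared 15181 regions covering 2078 kb. Of these 15181 regions, 2371 (15.6%) held a region of all 8 lists, and those 2371 had a median width of 158 bp, against 92 bp for the 12810 that held none.

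Inside each list, the peaks that held a region were wider than most others. For H3K79me1, the median width of the peak around a region was 1190 bp in Cre replicate 1 and 176 bp in Cre replicate 2, against 1525 bp in control replicate 1 and 610 bp in control replicate 2. The medians over all autosomal peaks of the same lists were 338 and 126 bp in the Cre libraries, against 477 and 256 bp in the controls. For H3K79me2, the median around a region was 1692 and 1217 bp in the Cre libraries, against 353 and 1682 bp in the controls, and over all peaks it was 351 and 231 bp in the Cre libraries, against 90 and 197 bp in the controls. A wide peak is more likely to meet peaks of other lists, so this contrast follows in part from the rule and was not tested. The widest peak around a region was 31120 bp, in H3K79me1 control replicate 1, and in H3K79me1 Cre replicate 2 no such peak passed 3086 bp.

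Because a broad domain can be broken into several peaks, peaks of a list no more than 1 kb apart were also merged, and the merged stretch is called a domain below. The median H3K79me1 domain around a region was 7791 bp in Cre replicate 1 and 229 bp in Cre replicate 2, against 10266 bp in control replicate 1 and 4469 bp in control replicate 2. The median H3K79me2 domain was 9204 and 7821 bp in the Cre libraries, against 2552 and 11811 bp in the controls. In 7 of the 8 lists, then, the typical region sat inside a domain of several kilobases, and in H3K79me1 Cre replicate 2 it sat in a short isolated peak. Domains of at least 10 kb held 41.1% and 0% of the regions in the H3K79me1 Cre libraries, against 51.2% and 17.6% in the controls. For H3K79me2 the shares were 47.3% and 40.5% in the Cre libraries, against 9.74% and 56.3% in the controls. A domain of at least 10 kb in all 4 lists of a mark was found for 0 regions in H3K79me1 and for 209 regions in H3K79me2.

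**Figure D1:**
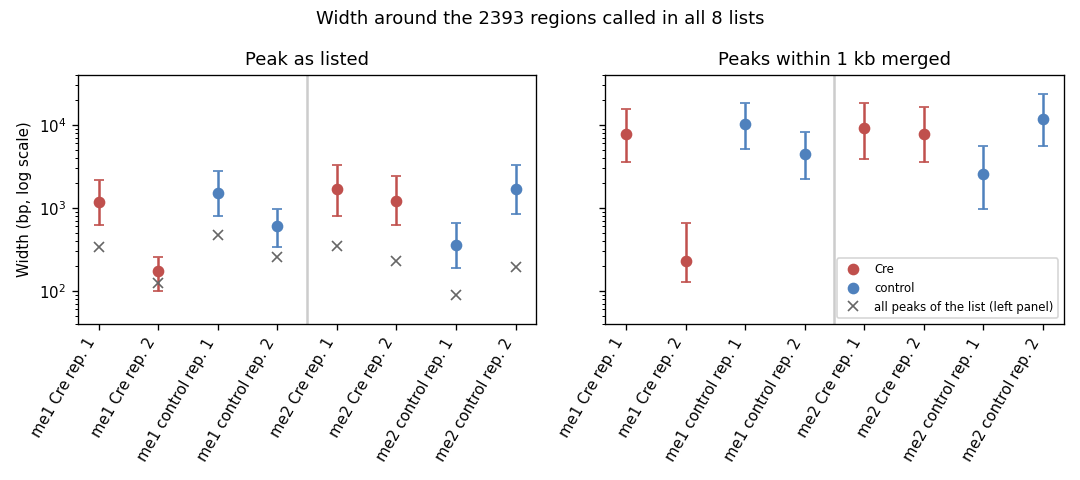
Median width in bp, on a log axis, of the peak and of the domain (peaks within 1 kb merged) around the 2393 regions, with 1 point per library, bars for the quartiles over regions, crosses for the median of all autosomal peaks of the list, and Cre left of control for each mark. H3K79me1 Cre replicate 2, at 176 bp for peaks and 229 bp for domains, lies far below the other 7 libraries.

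The 2 groups overlapped in width for both marks. Library medians of H3K79me1 peak width on the log2 scale averaged 8.84 ± 1.95 in Cre and 9.91 ± 0.93 in control (SD, n = 2 each), a difference of -1.08. For H3K79me1 domains, they averaged 10.38 ± 3.60 in Cre and 12.73 ± 0.85 in control (SD, n = 2 each), a difference of -2.34. For H3K79me2, peak widths averaged 10.49 ± 0.34 in Cre and 9.59 ± 1.59 in control (SD, n = 2 each), a difference of 0.90. H3K79me2 domains averaged 13.05 ± 0.17 in Cre and 12.42 ± 1.56 in control (SD, n = 2 each), a difference of 0.63. The Cre difference in domain width was thus 2.97 lower on the log2 scale in H3K79me1 than in H3K79me2. These are the widths of the same peaks that chose the regions, so no test is given for them. A single library decided each direction: without Cre replicate 2 the H3K79me1 differences were 0.30 for peaks and 0.20 for domains, and without control replicate 1 the H3K79me2 differences were -0.23 for peaks and -0.48 for domains.

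Cover fell off slowly with distance in most lists. At 1 kb from the centre of a region, on either side, the share of regions with a peak at that point was 54.2% and 3.64% in the H3K79me1 Cre libraries, against 60.2% and 33.6% in the controls. It was 61.1% and 55.3% in the H3K79me2 Cre libraries, against 23.2% and 63.6% in the controls. At 20 kb it was still 22.4% and 0.564% in the H3K79me1 Cre libraries, against 29.4% and 15.9% in the controls, and 20.7% and 18.7% in the H3K79me2 Cre libraries, against 7.06% and 22.6% in the controls. These values can be set against the shares of all autosomal bases under a peak, which were 2.41% and 0.0748% in the H3K79me1 Cre libraries and 4.76% and 2.16% in the controls. For H3K79me2 those shares were 1.92% and 1.99% in the Cre libraries and 0.637% and 2.83% in the controls. Every list thus stayed above its own autosomal share 20 kb away from the regions.

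**Figure D2:**
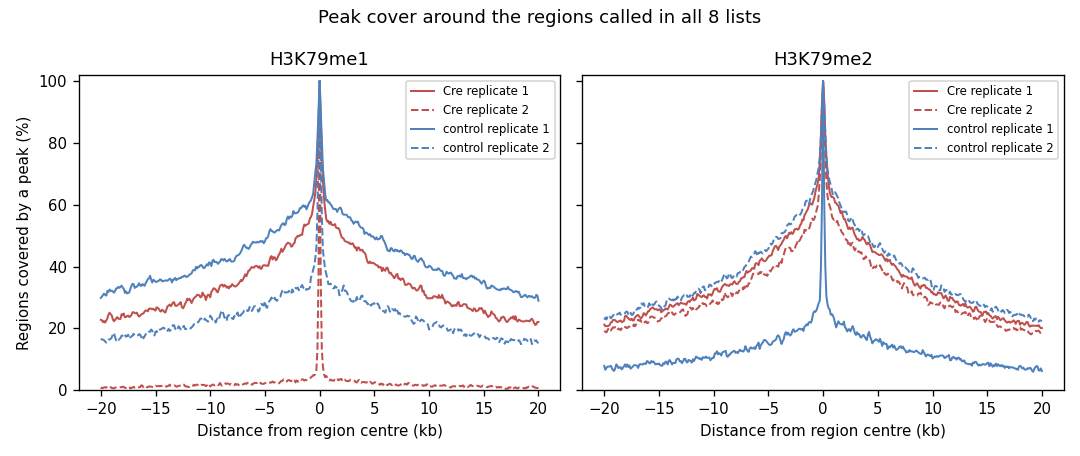
Percent of the 2393 regions with a peak at each distance from the region's centre, in kb, with 1 line per library and 1 panel per mark. At 5 kb, cover was 40.7% and 2.42% in the H3K79me1 Cre libraries against 48.7% and 28.5% in control, and 43.6% and 38.9% in the H3K79me2 Cre libraries against 15.5% and 46.1% in control.

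The order of regions by the width of their peaks was shared better among H3K79me2 lists than among H3K79me1 lists. Across the 2393 regions, Spearman's rho of the peak widths lay between 0.39 and 0.70 for pairs of H3K79me2 lists and between 0.05 and 0.33 for pairs of H3K79me1 lists. Between a list of one mark and a list of the other it ran from 0.02 to 0.62, with the value of 0.62 between H3K79me1 Cre replicate 1 and H3K79me2 Cre replicate 1. These correlations are across regions, which share libraries and often a domain, and are given without a test.

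The strength of the covering peaks was modest. The authors' median fold enrichment over background at the regions was 1.99 and 1.93 in the H3K79me1 Cre libraries, against 2.14 and 2.06 in the controls, and 2.20 and 2.16 in the H3K79me2 Cre libraries, against 2.46 and 2.26 in the controls. The authors' median −log10 p was 1.53 and 2.25 in the H3K79me1 Cre libraries, against 1.68 and 1.72 in the controls, and 1.77 and 1.79 in the H3K79me2 Cre libraries, against 2.43 and 1.97 in the controls. A q-value of 0.05 or less in the list was reached by 1 and 12 regions in the H3K79me1 Cre libraries, against 1 and 2 in the controls, and by 3 and 10 in the H3K79me2 Cre libraries, against 81 and 17 in the controls. At least 1 list gave such a q-value for 91 regions, and all 8 lists gave it for 1. The share of all peaks of a list with such a q-value was not counted. These counts therefore cannot be called high or low for any list. The lists were called at different settings, so these scores serve only to place a region among the peaks of its own list. For −log10 p, the peaks that held a region were ranked among all peaks of their list, each peak counted once. The median such peak stood at percentile 85.7 and 56.7 in the H3K79me1 Cre lists, against 85.1 and 83.5 in the controls. In the H3K79me2 lists it stood at percentile 88.6 and 88.7 in Cre, against 63.0 and 90.7 in the controls. It thus stood lowest in the 2 smallest lists.

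The regions were spread over all 19 autosomes and unevenly among them. Chromosomes 8 and 11 held 189 regions each and chromosome 2 held 188, against 69 on chromosome 13. Per Mb, chromosome 11 was highest with 1.55 regions, followed by chromosome 17 with 1.53 and chromosome 8 with 1.43, and chromosome 13 was lowest with 0.574, next to chromosome 1 with 0.583. Chromosome 8 was also where the largest share of the length common to the other 7 lists was kept in H3K79me1 Cre replicate 2, at 15.8%, against 9.15% on chromosome 7, the lowest. This share rests on a dense stretch of 34 regions described below, without which chromosome 8 kept 10.5%, against 12.1% over all autosomes and 15.5% on chromosome 18. Towards the chromosome ends, the last 10% of each chromosome held 16.8% of the regions, and that same stretch held 13.4 to 15.8% of the length of each list. For the start of the assembly, where mouse chromosomes carry their centromere, the cover of the lists is not given, so a count there cannot be called low or high. Within 200 kb of their first peak, 2 autosomes had 1 region each. These were a 205 bp region on chromosome 11 at 3110748 to 3110952 and a 94 bp region on chromosome 17 at 3128727 to 3128820, which lay 110.7 and 125.1 kb from the first peak.

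Neighbouring regions were often close together. Of the 2374 gaps between neighbours, 180 were no more than 1 kb, 689 (29.0%) were no more than 10 kb and 1008 (42.5%) were no more than 50 kb, while 561 (23.6%) were over 1 Mb. The median gap was 126.9 kb, the shortest 201 bp and the longest 36.3 Mb. Of the 689 pairs within 10 kb, 354 (51.4%) lay under one unbroken peak in at least 1 list, so that for these the break between regions came from other lists. The other 335 pairs were separate in all 8 lists.

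Chained at gaps of up to 50 kb, the regions formed 1385 clusters. Of these, 898 were single regions and 487 held at least 2, and the 487 took up 1495 regions (62.5%). There were 70 clusters of 5 or more, with 480 regions between them, and the fullest held 13. Clustered regions sat in wider domains than lone ones in all 8 lists. A wide domain has room for several regions within 50 kb, so this contrast follows in part from the rules and was not tested. For H3K79me2, the median domain around regions in clusters of 5 or more was 25295 and 21719 bp in the Cre libraries, against 4513 and 31633 bp in the controls. Around lone regions it was 5046 and 4736 bp in the Cre libraries, against 1425 and 7049 bp in the controls. For H3K79me1 the domains of the clustered regions had medians of 18304 and 391 bp in the Cre libraries, against 15758 and 6236 bp in the controls, and those of lone regions 4642 and 182 bp in the Cre libraries, against 7337 and 3503 bp in the controls.

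There were 12 clusters of 10 or more regions. Of the 10 outside a dense stretch of chromosome 8, 9 spanned over 50 kb, up to 156.6 kb. One lay on chromosome 15 at 61894885 to 61966273, with 13 regions over 71.4 kb. Its peaks covered 75.5% and 6.17% of the stretch in the H3K79me1 Cre libraries, against 63.6% and 38.6% in the controls, and 83.0% and 79.3% in the H3K79me2 Cre libraries, against 33.3% and 87.7% in the controls. Another 13 regions lay on chromosome 15 at 76977700 to 77134282. Further clusters of this length were on chromosome 4 at 149666668 to 149798779 with 12 regions, on chromosome 18 at 83090554 to 83160580 with 11, on chromosome 1 at 191555320 to 191636232 with 11, on chromosome 11 at 76111411 to 76203690 with 11, on chromosome 9 at 21133818 to 21234306 with 10 and on chromosome 8 at 111233334 to 111358925 with 10. The other 2, which fell outside the naming rule by a tie at 10 regions, were on chromosome 14 at 121717497 to 121770144 and on chromosome 2 at 32017403 to 32035003, the only short one, with a span of 17.6 kb. In each of these 10 clusters, H3K79me1 Cre replicate 2 covered 2.04 to 9.98% of the span and was the lowest of the 8 lists.

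The remaining 2 clusters of 10 or more were as short as the one on chromosome 2 but differed in that list. Both lay on chromosome 8, at 20003283 to 20019865 with 13 regions over 16.6 kb and at 19785400 to 19802044 with 10 regions over 16.6 kb, with median gaps of 737 and 985 bp. In the cluster near 20.0 Mb, peaks covered 49.1% and 48.7% in the H3K79me1 Cre libraries, against 74.1% and 68.3% in the controls, and 47.3% and 33.9% in the H3K79me2 Cre libraries, against 56.3% and 52.1% in the controls. In the cluster at 19785400 they covered 42.6% and 49.0% in the H3K79me1 Cre libraries, against 66.7% and 60.1% in the controls, and 43.6% and 44.1% in the H3K79me2 Cre libraries, against 49.1% and 54.9% in the controls. In both clusters the cover of H3K79me1 Cre replicate 2 lay within the range of the other 7 lists.

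A pair of smaller clusters lay between or beside them and were looked at after these values had been seen. A cluster of 9 regions ran from 19880389 to 19891769, and a cluster of 2 regions from 19679659 to 19681368. The 4 clusters together made a stretch of 340.2 kb, at 19679659 to 20019865 on chromosome 8, with 34 regions and 8734 bp, or 3.47% of all region bases. The nearest other regions were 830.5 kb before it and 3.29 Mb after it. Peaks stood almost wholly in and around the 4 clusters: the 166.3 kb of the stretch within 20 kb of a cluster held 99.4% and 96.4% of the covered length in the H3K79me1 Cre libraries, against 100% in both controls. In the H3K79me2 lists it held 100% and 99.5% in the Cre libraries, against 96.2% and 96.6% in the controls. The 173.9 kb between them were covered to at most 0.806% in any list.

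Each list's cover in this stretch exceeded its cover of the autosomes, and by a very different factor. Peaks covered 9.21% and 11.5% of the 340.2 kb in the H3K79me1 Cre libraries, against 15.0% and 14.7% in the controls, and 7.62% and 7.22% in the H3K79me2 Cre libraries, against 10.2% and 9.34% in the controls. Relative to the share of the autosomes covered by the same list, that was 3.82 and 154 times in the H3K79me1 Cre libraries, against 3.14 and 6.79 times in the controls. For H3K79me2 it was 3.96 and 3.63 times in the Cre libraries, against 16.0 and 3.30 times in the controls. The 2 largest factors thus belonged to the 2 lists that covered least of the genome. The stretch alone held 2.12% of the whole autosomal length of H3K79me1 Cre replicate 2.

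**Figure D3:**
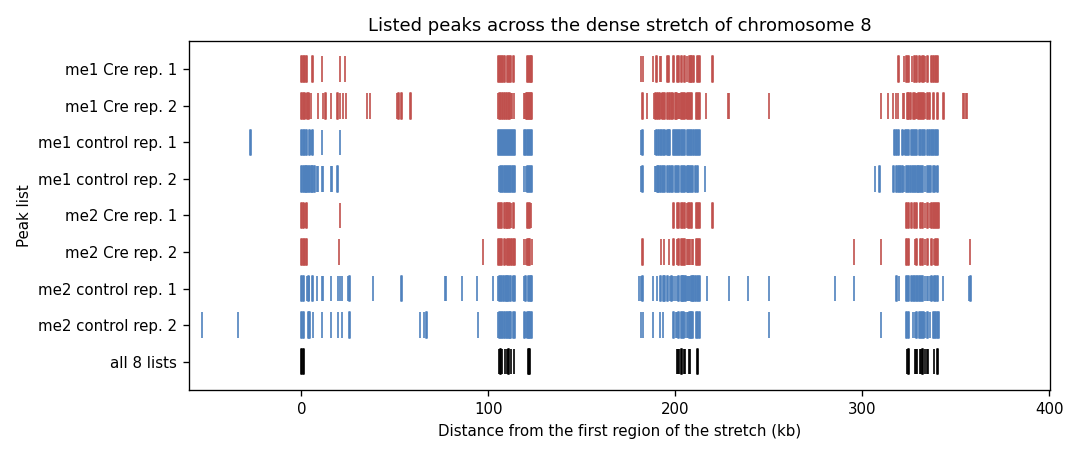
Peaks of the 8 lists across the dense stretch of chromosome 8, as distance in kb from the start of its first region, with Cre above control for each mark and the 34 regions in a row of their own. Peaks of all 8 lists are gathered in the same 4 blocks, which hold 2, 10, 9 and 13 regions, and 96.2 to 100% of each list's covered length lies within 20 kb of them.

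Within the stretch, the domains of H3K79me1 Cre replicate 2 were long. Its median domain around the 34 regions was 8978 bp, against 226 bp around its 2359 regions elsewhere, and its median peak was 786 bp, against 174 bp elsewhere. The median domain was also longer in the stretch than elsewhere in both H3K79me1 controls, at 14508 and 18936 bp against 10209 and 4369 bp. In H3K79me2 control replicate 1 it was 8320 bp, against 2491 bp elsewhere. It was shorter in the stretch in H3K79me1 Cre replicate 1, at 5725 bp against 7907 bp elsewhere. The same direction held for both H3K79me2 Cre libraries and H3K79me2 control replicate 2. The authors' median fold at the regions of the stretch was 2.47 and 1.85 in the H3K79me1 Cre libraries, against 2.75 and 2.41 in the controls, and 2.52 and 2.44 in the H3K79me2 Cre libraries, against 2.28 and 2.56 in the controls. It was above the median at the regions elsewhere in 6 of the 8 lists, and below it in the 2 smallest lists. The median peak was longer in the stretch than elsewhere in 4 lists, which were H3K79me1 Cre replicate 2, both H3K79me1 controls and H3K79me2 control replicate 1, and shorter in the other 4. Of the length shared by the other 7 lists, H3K79me1 Cre replicate 2 kept 79.8% in the stretch, against 11.8% in the rest of the autosomes. The stretch was chosen for its density of regions, and every region lies under a peak of H3K79me1 Cre replicate 2. A high kept share and wide cover of that list there thus follow in part from the choice. No test of these differences was made.

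The spacing of the blocks was described by shifts of the peak tracks. The blocks were defined by regions under a peak in every list, so a shift chosen in lists of one mark recurs in part by the rule in the other. When the stretch was cut into bins of 50 bp and the peak track of a list was shifted along itself, the shift with the highest mean correlation in the H3K79me1 lists, among shifts of 50 to 250 kb, was 217.2 kb. At this shift, the correlation in the lists of the other mark was 0.41 and 0.30 in the H3K79me2 Cre libraries, against 0.46 and 0.44 in the controls, over 2460 bins. Choosing the shift in the H3K79me2 lists gave 217.8 kb, at which the correlation was 0.41 and 0.28 in the H3K79me1 Cre libraries, against 0.54 and 0.34 in the controls, over 2448 bins. The median over all shifts lay between -0.04 and -0.01. Taken singly, the best shift was 217.2 and 221.25 kb in the H3K79me1 Cre libraries, against 217.85 and 207.85 kb in the controls, and 225.95 and 217.75 kb in the H3K79me2 Cre libraries, against 217.15 and 224.8 kb in the controls, so the lists did not share 1 exact shift. A shift of this size brings the block of 10 regions onto the block of 13, neighbouring bins are not independent, and the same genomic sequence underlies all lists, so these values describe the spacing of blocks and do not compare the peaks inside them. Whether the blocks are copies of a tandem repeat was not tested, because no mm9 sequence was used.

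Outside this stretch, a comparable cluster was found at 1 place. The ratio of the cover of H3K79me1 Cre replicate 2 to the mean cover of the other 7 lists had a median of 0.0864 over the 70 clusters of 5 or more regions, with a range of 0.0369 to 1.08. The 3 highest ratios, of 1.08, 0.950 and 0.894, belonged to the 3 larger clusters of the chromosome 8 stretch. The next, of 0.776, was a cluster of 5 regions over 2112 bp on chromosome 13 at 74665989 to 74668100, and all other clusters were at 0.227 or below. In the chromosome 13 cluster, peaks covered 83.7% and 57.9% in the H3K79me1 Cre libraries, against 78.8% and 77.0% in the controls, and 72.4% and 59.0% in the H3K79me2 Cre libraries, against 66.9% and 84.2% in the controls. The median domain there was between 2182 and 2570 bp in all 8 lists, and the 50 kb on either side were covered to between 0.455 and 15.7%.

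**Figure D4:**
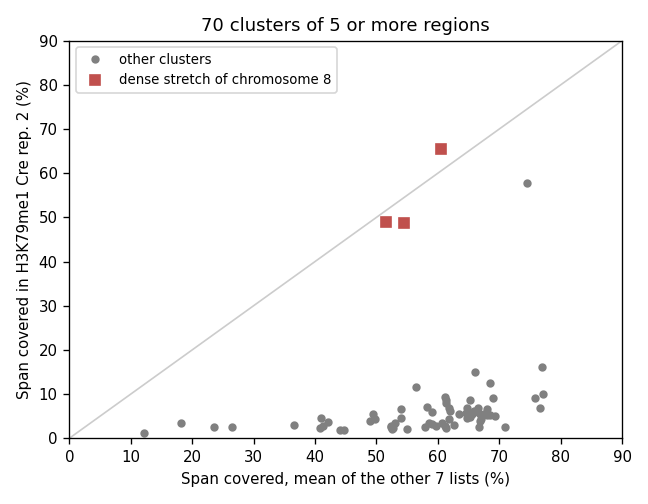
Cover of each of the 70 clusters of 5 or more regions, in percent of the cluster's span, with H3K79me1 Cre replicate 2 on one axis and the mean of the other 7 lists on the other, squares for the chromosome 8 stretch, circles for the rest and a line where both are equal. The 3 clusters of the chromosome 8 stretch and the cluster on chromosome 13 stand apart at ratios of 0.776 to 1.08, and the other 66 lie at 0.227 or below.

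The widest single regions included several of these places. The widest, of 1104 bp, lay on chromosome 4 at 149887806 to 149888909 and stood alone in its cluster. Its covering peaks were 2197 and 1369 bp in the H3K79me1 Cre libraries, against 3356 and 1200 bp in the controls, and 2254 and 2088 bp in the H3K79me2 Cre libraries, against 1249 and 2458 bp in the controls. Its peaks were thus over 1 kb in every list, which held for 6 regions in all, while 59 regions had a peak of at least 500 bp in every list. A neighbouring pair on chromosome 5, of 972 bp at 125866574 to 125867545 and 745 bp at 125867765 to 125868509, shared a peak of 4042 and 4229 bp in the H3K79me2 Cre libraries, against 2172 and 4142 bp in the controls. In H3K79me1 Cre replicate 2 this pair lay under separate peaks of 972 and 753 bp. A region of 841 bp on chromosome 3 at 104831815 to 104832655 had the widest narrowest peak, 1227 bp in H3K79me2 Cre replicate 2. The chromosome 8 stretch supplied 2 of the 8 widest regions, of 859 bp at 20011443 to 20012301 and of 804 bp at 19790050 to 19790853. The remaining 2 were a region of 831 bp on chromosome 11 at 4459888 to 4460718 and a region of 773 bp on chromosome 18 at 34399463 to 34400235.

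The widest H3K79me2 domains that held a region were over 10 kb in every H3K79me2 list. On chromosome 8, around a region of 165 bp at 125553415 to 125553579, the H3K79me2 domain was 70325 and 66414 bp in the Cre libraries, against 32935 and 70540 bp in the controls. Around the same region the H3K79me1 domain was 21787 and 2445 bp in the Cre libraries, against 6340 and 2253 bp in the controls. On chromosome 1, around a region of 100 bp at 39972584 to 39972683, the H3K79me2 domain was 66241 and 65921 bp in the Cre libraries, against 22989 and 65624 bp in the controls. The next 3, on chromosome 18 at 83113912, chromosome 7 at 121226651 and chromosome 2 at 128247573, had geometric means over the 4 lists of 46.7, 43.6 and 43.5 kb. In all 5, control replicate 1 had the shortest of the 4 H3K79me2 domains.

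For H3K79me1, the widest domains that held a region were over 10 kb in 3 of the 4 lists. The first was around a region of 1 bp on chromosome 9 at 65666668, where the domain was 21490 and 2955 bp in the Cre libraries, against 41662 and 19415 bp in the controls. The others lay on chromosome 14 at 69893144, chromosome 15 at 77113444, chromosome 5 at 125607182 and chromosome 4 at 149770016, with geometric means over the 4 lists of 14.5, 13.6, 13.3 and 13.2 kb. In all 5, Cre replicate 2 had the shortest H3K79me1 domain, between 832 and 2955 bp.

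A small group of regions lacked any surrounding domain. In 69 regions, picked out after their values had been seen, the domain was under 1 kb in every list. They lay on all 19 autosomes, 65 of them were alone in their cluster, and their median width was 54 bp, with a range of 27 to 246 bp. Widths of 40 to 69 bp were found in 57 of the 69 (82.6%), against 23.0% of the other regions. Their peaks were close to the shortest that each list holds. The median peak was 181 and 63 bp in the H3K79me1 Cre libraries, against 236 and 122 bp in the controls, and the shortest peak of the same lists was 164 and 50 bp in the Cre libraries, against 222 and 107 bp in the controls. For H3K79me2 the median peak was 157 and 159 bp in the Cre libraries, against 64 and 181 bp in the controls, and the shortest peak was 147 and 126 bp in the Cre libraries, against 51 and 116 bp in the controls.

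The narrow sites were chosen by width, and whether fold or −log10 p depends on the width of a peak was not tested. The contrasts below are therefore a description. The narrow sites had higher median fold enrichments than the other regions outside the chromosome 8 stretch in all 8 lists. The authors' median fold was 2.48 and 3.12 in the H3K79me1 Cre libraries, against 2.29 and 3.09 in the controls, and 2.51 and 2.85 in the H3K79me2 Cre libraries, against 3.70 and 3.24 in the controls. At the 2290 regions that were neither narrow nor in the chromosome 8 stretch, it was 1.98 and 1.93 in the H3K79me1 Cre libraries, against 2.13 and 2.06 in the controls, and 2.19 and 2.15 in the H3K79me2 Cre libraries, against 2.45 and 2.25 in the controls. The medians of the stretch, given above, were higher than those of the narrow sites in H3K79me1 control replicate 1 and H3K79me2 Cre replicate 1 and lower in the other 6 lists. Of the 41 regions left when every list was limited to peaks with a −log10 p of at least 2, 1 lay in the chromosome 8 stretch. When every list was cut to its 12155 strongest peaks, 50 regions were left and 0 lay in the stretch. The 2 sets shared 33 regions. The stretch held 34 of all 2393 regions, so counts of this size do not set it apart from the rest.

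**Figure D5:**
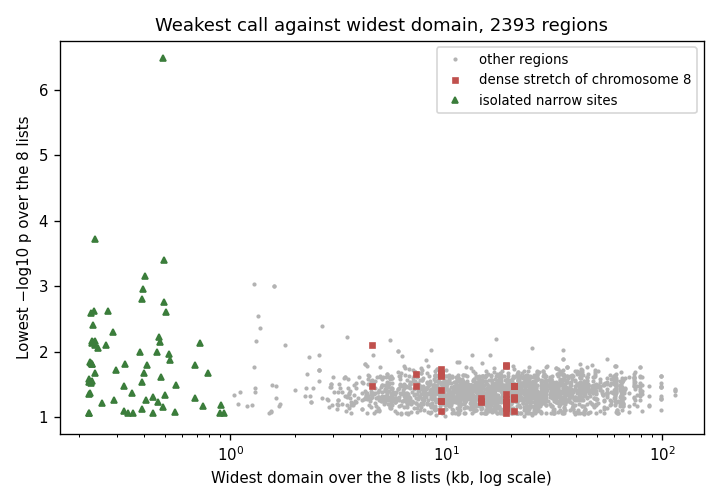
Lowest −log10 p over the 8 lists against the widest domain over the 8 lists, in kb on a log axis, with 1 point for each of the 2393 regions, triangles for the narrow sites and squares for the chromosome 8 stretch. The 69 narrow sites lie at the left, under 1 kb, and include 24 of the 41 regions with a −log10 p of at least 2 in every list.

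The region whose weakest call was the strongest, by the lowest −log10 p over the 8 lists, was a stretch of 181 bp on chromosome 10 at 71759926 to 71760106. Its fold enrichment was 5.12 and 4.85 in the H3K79me1 Cre libraries, against 5.04 and 4.75 in the controls, and 4.38 and 4.57 in the H3K79me2 Cre libraries, against 5.43 and 6.24 in the controls. Its peaks were 366 and 181 bp in the H3K79me1 Cre libraries, against 487 and 268 bp in the controls, and 314 and 395 bp in the H3K79me2 Cre libraries, against 189 and 290 bp in the controls. It was the only region with a q-value of 0.05 or less in all 8 lists. The folds of both groups and both marks at this site lay between 4.38 and 6.24. Others with a −log10 p of at least 3 in every list were on chromosome 12 at 15260375 to 15260432, chromosome 10 at 32536412 to 32536474, chromosome 5 at 114623111 to 114623168, chromosome 7 at 137533623 to 137533695 and, as a pair, chromosome 3 at 59849096 to 59849319 and 59849586 to 59849840.

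Windows of 50 kb were used to describe cover around the regions in Cre and control. For each mark, limma was fitted over all windows that could be tested, with or without a region. A window holds a region only where every list has a peak, so its contrast with all windows follows in part from the rule. Values for windows with a region are therefore a description and carry no test of the regions. Of the 49451 autosomal windows, 1593 held a region and 47 held at least 5. For H3K79me1, 4223 windows had a mean cover of at least 10% and could be tested, and 1255 of them held a region. limma at a Benjamini-Hochberg adjusted p of 0.05 called 0 of the 4223 (0%), and 0 of the 1255 had an unadjusted p under 0.05. Mean cover of the 1255 windows was 28.5% and 1.39% in the Cre libraries, against 39.9% and 21.4% in the controls. Both Cre libraries were below both controls in 343 of the 1255 (27.3%), against 42.0% of all windows tested, and the median difference was -14.9 percentage points, against -15.9 over all windows. Both were above both controls in 0 of them, against 0% of all windows. Without Cre replicate 2 the median difference in windows with a region was -2.02 percentage points. With the replicate number as a block, limma called 803 of the 1255 windows (64.0%), 802 of them lower in Cre, against 79.7% of all windows tested. That fit treats same-numbered libraries as pairs, which the labels do not state. With each library centred on its median, limma called 9 of the 1255 (0.717%), all higher in Cre, against 0.213% of all windows.

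For H3K79me2, 2754 windows could be tested, and 1156 of them held a region. limma called 0 of the 2754 (0%), and 0 of the 1156 had an unadjusted p under 0.05. Mean cover of the 1156 windows was 30.1% and 27.1% in the Cre libraries, against 10.2% and 33.1% in the controls. Both Cre libraries were above both controls in 121 of the 1156 (10.5%), against 9.22% of all windows tested, and below both in 3 (0.260%), against 0.109%. The median difference was 5.88 percentage points, against 4.61 over all windows, and -3.84 percentage points without control replicate 1. Without that library limma called 199 of the 1254 windows with a region that could be tested (15.9%), 197 of them lower in Cre, against 21.5% of all windows. Without control replicate 2 it called 1052 of 1076 (97.8%), all higher in Cre, against 97.8% of all windows. In both fits the lone control library was assumed to vary like the Cre libraries, and the 2 directions rest on which control was kept. On data simulated with the spread of these libraries, the fit without a block recovered 0 of 200 shifts of 30 percentage points for either mark. Differences of that size were thus not detectable by that fit under the simulated noise. The noise was drawn separately for each window, and a shift shared by all windows of a library was not simulated.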

How the data were processed

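ChIP-seq libraries of both marks were grouped by sample title, and the 4 libraries of RNA polymerase II were not used here. Named in the submitters' processing notes are the aligner Bowtie2, the peak caller MACS2, the tools HOMER, bedtools, deepTools and SAMtools 1.2, and mm9 and hg19 as builds. Peak names in the deposited lists record broad calls, at a p of 0.001 (H3K79me1) or 0.0001 (H3K79me2). The median −log10 p listed at the regions ran from 1.53 to 2.43 over the lists, which is weaker than these settings. The settings are thus not a floor for the listed values. The deposited columns give, per peak, a fold enrichment (a ratio over background), a −log10 p-value, a −log10 q-value and a score. Sequencing depth is unknown, so no counting interval is given.

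Intervals were intersected in Python 3.11.15 with pandas 2.3.3 and NumPy 2.4.6, and positions are 1-based. Domains joined peaks within 1 kb, and clusters joined regions within 50 kb. The planned exact permutation tests of library median widths are not reported, since those peaks chose the regions. Covered shares of 50 kb windows were fitted with limma 3.58.1 in R 4.3.3 (empirical Bayes with trend). Scripts were tested on simulated data. Regions were named by a rule: the 8 widest, the 10 fullest clusters, the 5 widest domains per mark and first regions within 200 kb of an assembly start. Other regions, the chromosome 8 stretch and the narrow sites were chosen after their values were seen. The regions, the rules and the lists were chosen with earlier results of these data known. Alternatives left out each library, required stricter or equal peaks, and changed widths, gaps, windows and minimum cover. Gene names and sequences are not given, because no mm9 genome was used.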

Additional observations from a re-analysis of the deposited data

How the results depend on the processing

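Of 100 alternative values, 86 kept their direction or, for counts, stayed within 1.5 times of the main one, while sizes of difference moved widely. Part of the 86 could hardly have moved. With the replicate number as a block, each width difference equals the main one by construction. Many limma counts stayed at 0, and the main fit recovered 0 of 200 simulated shifts. The 86 is thus not a measure of robustness. Leaving out each library in turn gave 2444 to 15181 regions and 1410 to 3139 clusters, the highest in both cases without H3K79me1 Cre replicate 2. The number of regions was 41 with a −log10 p of at least 2, 50 with equal numbers of peaks, 279 with a minimum width of 200 bp, and 30862 without both small lists (H3K79me2 control replicate 1 and H3K79me1 Cre replicate 2), an alternative chosen after seeing the data. With each library left out, the log2 difference between Cre and control ran from -2.45 to 0.30 for H3K79me1 peaks, from -4.89 to 0.20 for H3K79me1 domains, from -0.23 to 2.02 for H3K79me2 peaks and from -0.48 to 1.73 for H3K79me2 domains. It reversed without H3K79me1 Cre replicate 2 (0.30 and 0.20) and without H3K79me2 control replicate 1 (-0.23 and -0.48). With 1 library left out at a time, the difference between the marks stayed negative, from -5.51 to -0.43. At least 1 of the 2 small lists was kept each time. Without its small list, the domain difference of each mark changed sign, to 0.20 for H3K79me1 and -0.48 for H3K79me2. The sign of the difference between the marks thus also rests on these 2 lists.

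With each library left out, limma called 0 H3K79me1 windows each time and 0 to 2270 H3K79me2 windows: 720 without control replicate 1 and 2270 without control replicate 2. Centring on library medians gave 9 H3K79me1 windows (0.213%), all higher in Cre, and all 9 hold a region (0.717% of those with one). Before centring, Cre replicate 2 lay below both controls in all 9, and only Cre replicate 1 lay above them. Replicate numbers are shared between groups, and so is a tag in the deposited peak names (A and 19 for H3K79me1 replicates 1 and 2, A and B for H3K79me2), but neither is stated to mark a shared culture, batch or day. Peak names of H3K79me1 Cre replicate 2 also carry Cre2, where those of the other Cre lists carry Cre. What this difference means is not stated. Same-numbered libraries deviated together over H3K79me1 windows (correlation 0.507) and in opposite directions over H3K79me2 windows (-0.404). With the replicate number as a block, limma called 3365 H3K79me1 windows (79.7%), 3364 of them lower in Cre, 803 of the 1255 with a region (64.0%), and 0 H3K79me2 windows, and the crossed block, chosen after seeing the data, also called 0. The causes were not tested. Peak lists carry no depth, so a small list cannot be told apart from a shallow one.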
